A study of Mus musculus with 8 samples.

Results

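The 40 genes described here encode the autophagy machinery, from the kinase complex that starts an autophagosome to the receptors that load it, together with the folliculin complex. They were the listed genes whose symbol matched a fixed set of names. That set was chosen with earlier results of these data known. Each of the 40 was found among the 42775 genes of the expression table, and 39 of them had a mean of at least 1 CPM (reads scaled to the library total) over the 8 libraries and were tested with 14264 genes in all. The libraries were poly(A) RNA from cultured cochleas of wild-type Swiss Webster mouse embryos. In 4 libraries the explants had received 10 μM CHIR99021, an inhibitor of the kinase GSK3 that raises Wnt/β-catenin signalling, for 6 h, and in 4 Control libraries they had received the vehicle DMSO for the same time. Every explant had been in culture for 1 day. Each group held 2 libraries labelled female (replicates 1 and 3) and 2 labelled male (replicates 2 and 4). The labels give E14.0 as the source stage and E12.5 for the explants, and no source used here says how many cochleas went into a library. The submitters call the libraries biological replicates.

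Autophagy delivers cytoplasm, organelles and protein aggregates to the lysosome inside a double membrane. The ULK kinase complex, which mTORC1 holds back in fed cells, starts the process, a PI3-kinase complex marks the membrane with PI3P, lipid-transfer proteins enlarge it, and a pair of ubiquitin-like conjugation systems decorates it with the small proteins to which cargo receptors bind. In the mouse cochlea, autophagy is known for keeping hair cells alive, since loss of Atg5 from them leads to deafness. Transcript levels say how much of the machinery's mRNA was present, not how much autophagy took place.

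The libraries held 64905007 to 75434130 assigned reads with CHIR99021 and 66483661 to 89269187 in Control, and a single read stood for between 0.0112 and 0.0154 CPM. The Wnt targets Axin2, Nkd1 and Lef1 were higher in all 4 CHIR99021 libraries, by 1.59, 2.24 and 0.81 on the log2 scale. Among 14264 genes, 3052 were lower and 1753 higher (limma, adjusted p under 0.05), and after scaling the CPM by TMM, which trims the genes that differ most, 2360 were lower and 2437 higher. That scaling moved the median gene up by 0.06 (log2). The first principal component (48.7% of variance) separated the treatments, and the second (16.8%) separated replicates 1 and 4 from 2 and 3 in both groups. Markers of otic epithelium, mesenchyme, cartilage, glia, neurons and endothelium were detected. The explants thus held several cell types, and in bulk RNA of such tissue fewer cells of a type and less RNA per cell cannot be told apart. Summed glial markers (3 of 4 tested lower) stood at 463 to 497 CPM with CHIR99021 and 642 to 705 CPM in Control, and summed cartilage markers (3 of 5 lower) at 3542 to 4031 CPM with CHIR99021 and 4494 to 5828 CPM in Control. Epithelial markers (5 of 10 lower, 1 higher) summed to 1512 to 1536 CPM with CHIR99021 and 1369 to 1623 CPM in Control. Neuronal markers (2 of 5 lower) summed to 44.7 to 71.1 CPM with CHIR99021 and 74.7 to 99.3 CPM in Control, and macrophage markers (2 of 2 tested lower) to 5.68 to 8.87 CPM with CHIR99021 and 8.10 to 13.6 CPM in Control. Mesenchymal markers (3 of 6 lower, 2 higher) summed to 1085 to 1220 CPM with CHIR99021 and 1168 to 1319 CPM in Control. Endothelial markers (0 of 4 lower, 0 higher) summed to 47.2 to 61.6 CPM with CHIR99021 and 46.7 to 65.9 CPM in Control. Of all genes tested, 21.4% were lower and 12.3% higher. The part of cell composition in the values below was not tested.

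Autophagy transcripts were mostly lower after 6 h of CHIR99021. Of the 39 genes tested, 23 were lower, 3 higher and 13 did not pass (limma, Benjamini-Hochberg adjusted p under 0.05 over all genes). The share of lower genes was 59.0%, against 21.4% of all genes tested, and that of higher genes 7.69%, against 12.3%. With a further threshold of 0.5 on the log2 fold change, 15 were lower and 0 higher, where 8.91% and 2.95% of all genes passed. The 4 CHIR99021 libraries lay wholly below the 4 Control libraries for 20 of the 39 genes and wholly above them for 4, against 20.6% and 12.7% of all genes. The median log2 fold change was -0.35 for the 39 genes and -0.05 for all genes. Below, means are given ± SD over the 4 libraries of a group, log2 fold changes ± SE, and ranges in parentheses beside a fold change are 95% confidence intervals. The summed expression of the 40 genes was 2182 to 2307 CPM in the CHIR99021 libraries and 2928 to 3017 CPM in Control. After TMM scaling 21 of the 39 were lower and 4 higher (limma), against 16.5% and 17.1% of all genes. In edgeR's quasi-likelihood test on the recovered reads 19 were lower and 4 higher, against 12.6% and 12.8% of the 18116 genes it tested. The differences were uneven by role. The ULK complex and most receptors were lower, 1 conjugation gene was lower and 1 higher, and 2 of the 3 folliculin complex genes were higher.

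**Figure D1:**
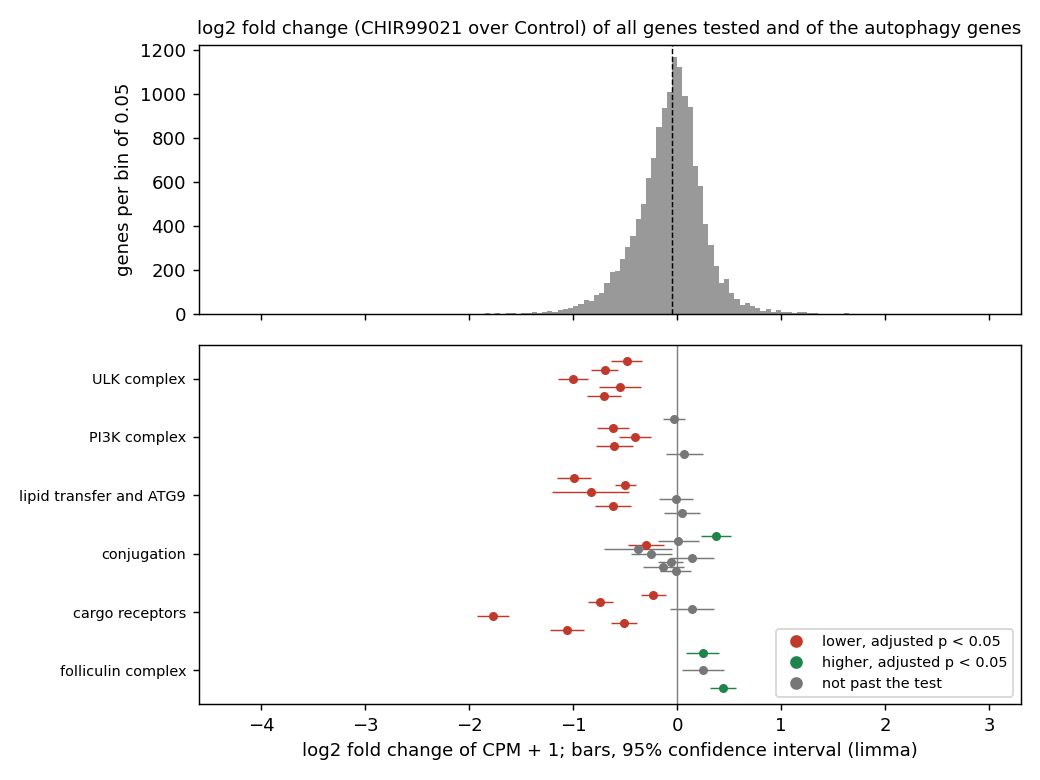
Log2 fold changes of CPM + 1, CHIR99021 over Control. The upper panel counts all 14264 genes tested in bins of 0.05 with the median dashed at -0.05, and in the lower panel each point is 1 of 34 autophagy genes by role with its 95% confidence interval, red where lower, green where higher and grey where not past the test. The ULK complex points are all red, Calcoco1 is the lowest at -1.77, and Flcn, Fnip2 and Atg3 are the 3 green points.

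Promoter sequences are shown for Calcoco1 and Atg13, each the most reduced gene of its role, and for 2 of the 3 genes that held a match to a searched motif, Atg3 and Fnip1. RefSeq transcription start windows (GRCm38.p6) were found for 33 of the 40 genes, and the 250 bases before each start were searched on both strands for GTAAACA, the core bound by FOXO factors, for TCACGTG, the CLEAR or E-box core bound by TFEB and its relatives, and for CTTTGAT, the core bound by TCF/LEF, the DNA-binding partners of β-catenin. The FOXO core was in 0 of 33 (3.54% of 27025 genes had it) and the TCF/LEF core in 0 of 33 (3.72% of genes), Calcoco1 and Atg13 included. The CLEAR core was in 3 of 33, against 3.58% of genes: in Atg3 at base -95 and, on both strands of 1 overlapping palindrome, at -72 and -71, in Atg7 at -133, and in Fnip1 at -75. Such matches describe letters in the window and no binding was measured. Capitals mark the CLEAR core or its reverse complement CACGTGA, and all sequences run 5′ to 3′ on the gene's strand. The Atg3 run ends where the gene begins in GENCODE, with the last 44 of its 250 bases left out.
Calcoco1, chr15:102722179-102722428, minus strand: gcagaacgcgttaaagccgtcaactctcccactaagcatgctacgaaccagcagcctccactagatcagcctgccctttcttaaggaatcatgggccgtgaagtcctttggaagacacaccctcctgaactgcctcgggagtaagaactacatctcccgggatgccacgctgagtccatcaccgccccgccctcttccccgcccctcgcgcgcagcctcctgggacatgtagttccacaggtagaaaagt
Atg13, chr2:91710593-91710842, minus strand: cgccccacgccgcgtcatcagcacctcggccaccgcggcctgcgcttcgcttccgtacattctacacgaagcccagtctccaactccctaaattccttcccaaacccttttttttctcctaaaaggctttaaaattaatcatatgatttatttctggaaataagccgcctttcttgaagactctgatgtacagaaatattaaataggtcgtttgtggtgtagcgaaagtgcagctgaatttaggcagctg
Atg3, chr16:45158579-45158784, plus strand: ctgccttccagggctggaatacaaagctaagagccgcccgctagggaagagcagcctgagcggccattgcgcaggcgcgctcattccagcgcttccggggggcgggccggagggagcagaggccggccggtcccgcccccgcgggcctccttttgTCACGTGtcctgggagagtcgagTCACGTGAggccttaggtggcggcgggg
Fnip1, chr11:54437929-54438178, plus strand: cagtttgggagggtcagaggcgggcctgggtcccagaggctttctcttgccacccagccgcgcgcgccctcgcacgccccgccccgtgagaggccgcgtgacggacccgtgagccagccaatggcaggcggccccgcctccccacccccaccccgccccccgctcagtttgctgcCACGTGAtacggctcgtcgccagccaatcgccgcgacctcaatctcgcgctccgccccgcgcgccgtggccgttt
The Atg13 run was 46.4% G and C, that of Calcoco1 57.6%, that of Atg3 69.9% and that of Fnip1 73.6%. The median over the members' 38 windows was 59.4%, against 52.4% over all windows.

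All 5 genes of the ULK complex were lower with CHIR99021, against 21.4% of all genes. In each the groups did not overlap, against 20.6% of all genes that lay wholly lower. Their summed expression was 253 to 264 CPM in the CHIR99021 libraries and 405 to 432 CPM in Control. Atg13 (chr2:91674618-91710576), the adaptor that joins the kinase to its scaffold, showed the largest fall of the complex. Atg13 stood at 33.0, 37.4, 33.1 and 37.3 CPM in CHIR99021 replicates 1 to 4, against 66.4, 73.3, 71.1 and 74.7 CPM in Control replicates 1 to 4. All CHIR99021 libraries were near 49.3% of the Control mean, 35.2 ± 2.50 CPM with CHIR99021 and 71.4 ± 3.64 CPM in Control, with a log2 fold change of -1.0 ± 0.07 (SE, limma adjusted p = 3.46e-06), the 174th lowest of 14264. Rb1cc1 stood at 66.3, 66.5, 71.7 and 63.6 CPM in CHIR99021 replicates 1 to 4, against 117, 118, 110.2 and 94.8 CPM in Control replicates 1 to 4. Rb1cc1 encodes FIP200, the scaffold of the complex, and even the lowest Control library stood above every CHIR99021 library (-0.70 ± 0.07, limma adjusted p = 6.26e-05). Ulk2 had 56.9, 63.3, 62.8 and 59.1 CPM in CHIR99021 replicates 1 to 4, against 101, 102, 102 and 91.01 CPM in Control replicates 1 to 4. The Control libraries of this kinase lay close together except for replicate 4, which was lower than its group and still above all treated libraries (-0.70 ± 0.06, limma adjusted p = 1.52e-05). Ulk1 was measured at 69.6, 63.2, 67.6 and 67.3 CPM in CHIR99021 replicates 1 to 4, against 98.0, 95.9, 83.2 and 100.3 CPM in Control replicates 1 to 4. Its log2 fold change was -0.49 ± 0.07 (limma adjusted p = 0.000324). Within a library, the log2 ratio of Ulk2 to Ulk1 was -0.14 ± 0.12 with CHIR99021 (SD, n = 4). In Control the ratio was 0.07 ± 0.18 (SD, n = 4). The difference was -0.21 and the groups overlapped, with each treated library below the Control library of its number. This gene pair was chosen after its values had been seen, so the ratio is a description with no test. Atg101 stood at 27.4, 32.3, 28.5 and 27.0 CPM in CHIR99021 replicates 1 to 4, against 36.2, 43.0, 47.6 and 44.5 CPM in Control replicates 1 to 4. Atg101, which stabilises ATG13, was lower in each treated library (-0.55 ± 0.09, limma adjusted p = 0.00104).

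**Figure D2:**
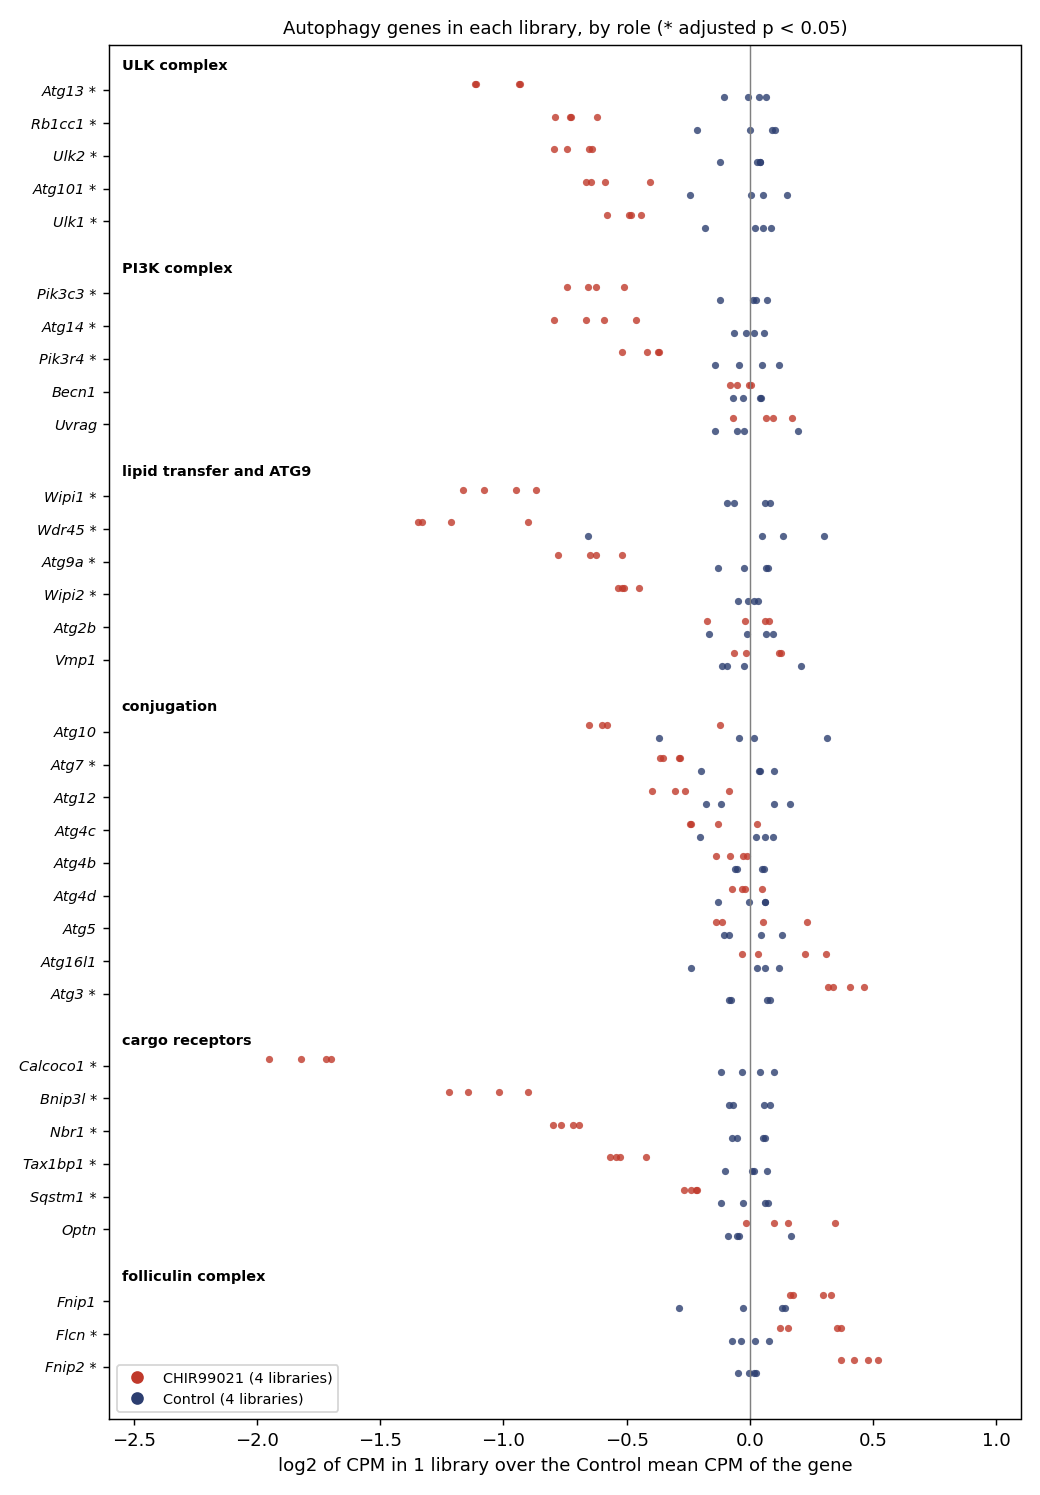
Expression of 34 of the tested autophagy genes in each library, as log2 of CPM over the gene's mean CPM in Control, grouped by role. Red points are the 4 CHIR99021 libraries and the other points the 4 Control libraries. CHIR99021 lies wholly to the left for 18 genes and wholly to the right for 4, against 20.6% and 12.7% of all genes tested. Calcoco1 is farthest left.

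In the PI3-kinase complex, 3 of 5 genes were lower, against 21.4% of all genes. The catalytic subunit Pik3c3, the regulatory subunit Pik3r4 and Atg14, the subunit that directs the complex to autophagosome formation, were lower, while Becn1 and Uvrag, the subunit that takes the place of ATG14 in the complex acting at endosomes, did not pass the test. Pik3c3 had 32.4, 35.1, 29.9 and 31.7 CPM in CHIR99021 replicates 1 to 4, against 52.4, 46.0, 50.5 and 50.9 CPM in Control replicates 1 to 4. The highest treated library stayed below the lowest Control library (-0.62 ± 0.07, limma adjusted p = 8.49e-05). Atg14 was measured at 19.7, 22.7, 18.0 and 20.7 CPM in CHIR99021 replicates 1 to 4, against 31.6, 29.8, 32.5 and 30.8 CPM in Control replicates 1 to 4. The scatter was small beside the difference, 20.3 ± 1.96 CPM with CHIR99021 and 31.2 ± 1.13 CPM in Control (-0.60 ± 0.08, limma adjusted p = 0.000249). Pik3r4 had 37.4, 36.3, 33.9 and 37.5 CPM in CHIR99021 replicates 1 to 4, against 50.2, 47.1, 44.0 and 52.7 CPM in Control replicates 1 to 4. Pik3r4, the pseudokinase VPS15 that anchors the complex, had the smallest fall of the 3 (-0.41 ± 0.07, limma adjusted p = 0.00128). Becn1 was measured at 124, 119, 117 and 124 CPM in CHIR99021 replicates 1 to 4, against 128, 127, 118 and 122 CPM in Control replicates 1 to 4. Those ranges overlapped, with a log2 fold change of -0.03 (95% confidence interval -0.14 to 0.08, limma adjusted p = 0.667). Becn1 shares 43.9% of its exon bases with Cntd1 on the opposite strand. Uvrag averaged 35.9 ± 2.46 CPM with CHIR99021 and 34.2 ± 3.50 CPM in Control, a difference of 0.07 (-0.11 to 0.25, limma adjusted p = 0.555). Within a library, the log2 ratio of Atg14 to Uvrag was -0.83 ± 0.05 with CHIR99021 and -0.13 ± 0.19 in Control (SD, n = 4 each), a difference of -0.70, and that of Atg14 to Becn1 differed by -0.60. All such gene pairs were chosen after their values had been seen, so their ratios are given as a description with no test.

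Among the genes that read PI3P and move lipid into the growing membrane, 4 of 6 tested were lower, against 21.4% of all genes. Wipi1 (chr11:109573331-109611967), a PI3P-binding propeller protein, was the most reduced by fitted fold change. Wipi1 had 31.3, 36.3, 34.2 and 29.5 CPM in CHIR99021 replicates 1 to 4, against 63.3, 70.0, 62.2 and 69.2 CPM in Control replicates 1 to 4. The treated libraries held 49.6% of the Control mean, 32.8 ± 3.03 CPM with CHIR99021 and 66.2 ± 4.00 CPM in Control (-0.99 ± 0.08, limma adjusted p = 7.81e-06). Wipi2 had 133, 139.7, 132 and 134 CPM in CHIR99021 replicates 1 to 4, against 185, 189.8, 193 and 196 CPM in Control replicates 1 to 4. Wipi2, which recruits ATG16L1 to the membrane, was lower by 0.50 on the log2 scale (SE 0.05, limma adjusted p = 2.55e-05), a size just under the threshold of 0.5. Atg9a was measured at 20.7, 18.9, 17.3 and 19.2 CPM in CHIR99021 replicates 1 to 4, against 27.1, 29.2, 31.2 and 31.0 CPM in Control replicates 1 to 4. Atg9a encodes the lipid scramblase of the vesicles that seed the membrane, and it was lower by 0.61 (SE 0.08, limma adjusted p = 0.000204). It shares 31.8% of its exon bases with the gene model Gm29253 on the same strand, so reads of either cannot be told apart there. Wdr45 stood at 1.70, 2.11, 1.56 and 1.55 CPM in CHIR99021 replicates 1 to 4, against 4.85, 2.50, 4.07 and 4.33 CPM in Control replicates 1 to 4. Wdr45 encodes WIPI4, which binds the ATG2 lipid-transfer proteins, and its Control replicate 2 lay close to the treated libraries (-0.83 ± 0.17, limma adjusted p = 0.00323). Within replicates 2 and 3 alone its fold change was -0.58 and did not pass (limma adjusted p = 0.196), and 24.7% of its exon bases are shared with Gm45208 on the same strand. Atg2b averaged 72.6 ± 5.65 CPM with CHIR99021 and 73.2 ± 5.81 CPM in Control and Vmp1, an endoplasmic reticulum scramblase that acts with it, 81.4 ± 5.44 CPM with CHIR99021 and 79.0 ± 8.38 CPM in Control, with differences of -0.01 and 0.05 (limma adjusted p = 0.934 and 0.686). Atg2a, the other ATG2 gene, was listed at 0 in 7 libraries and at 0.0247 CPM, a single read, in Control replicate 4, and was not tested. The log2 ratio of Atg9a to Vmp1 within a library was -2.10 ± 0.20 with CHIR99021 and -1.41 ± 0.13 in Control (SD, n = 4 each, difference -0.69).

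Of the 9 conjugation genes, 1 was higher (11.1%, against 12.3% of all genes), 1 lower (11.1%, against 21.4%) and 7 did not pass, and their summed expression overlapped between groups, at 343 to 373 CPM with CHIR99021 and 348 to 380 CPM in Control. The higher gene was Atg3 (chr16:45158785-45188538), the E2-like enzyme of the lipid conjugation step. Atg3 had 41.8, 46.3, 44.5 and 42.4 CPM in CHIR99021 replicates 1 to 4, against 31.8, 35.2, 35.5 and 31.6 CPM in Control replicates 1 to 4. Every treated library was above every Control library, and the log2 fold change was 0.37 ± 0.07 (limma adjusted p = 0.00157). Atg7 was measured at 18.1, 17.3, 17.1 and 18.1 CPM in CHIR99021 replicates 1 to 4, against 19.2, 23.6, 22.6 and 22.7 CPM in Control replicates 1 to 4. Atg7, the E1-like enzyme that serves both conjugation systems, was lower by 0.30 (SE 0.08, limma adjusted p = 0.0144), and the fall did not pass within replicates 1 and 4 or within 2 and 3 (limma adjusted p = 0.25 and 0.0687). Atg5, Atg12 and Atg16l1 form the E3-like complex of that step. Atg5 averaged 41.9 ± 5.11 CPM with CHIR99021 and 41.4 ± 3.25 CPM in Control (log2 fold change 0.01, -0.19 to 0.21), and Atg16l1 46.7 ± 5.18 CPM with CHIR99021 and 42.4 ± 4.47 CPM in Control (0.14, -0.07 to 0.35). Atg12 averaged 60.5 ± 5.58 CPM with CHIR99021 and 72.3 ± 8.27 CPM in Control (-0.25, limma adjusted p = 0.0507) and was called lower when the replicate number entered the fit as a block (limma adjusted p = 0.00865) and without CHIR99021 replicate 2, Control replicate 1 or Control replicate 4 (0.0232, 0.0475 and 0.0307). Atg10, the E2-like enzyme for ATG12, was the scarcest tested gene of this role at 3.53 ± 0.649 CPM with CHIR99021 and 4.90 ± 0.943 CPM in Control (-0.38, limma adjusted p = 0.0716), and was called lower without CHIR99021 replicate 2 or Control replicate 2 (limma adjusted p = 0.0315 and 0.0354). The log2 ratio of Atg3 to Atg10 within a library was 3.65 ± 0.19 with CHIR99021 and 2.79 ± 0.29 in Control (SD, n = 4 each, difference 0.85). The proteases that prime and reverse the conjugation, Atg4b, Atg4c and Atg4d, differed by -0.06, -0.13 and -0.02, each with an interval that included 0.

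**Figure D3:**
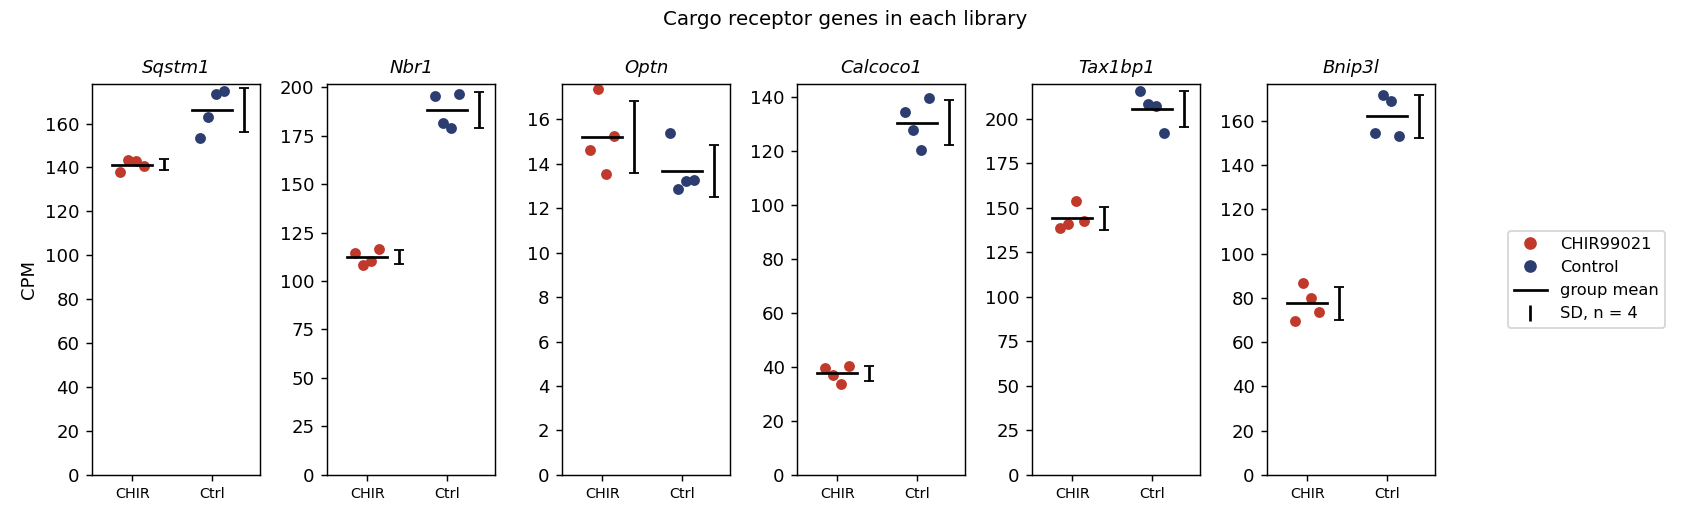
CPM of the 6 cargo receptor genes in each library, CHIR99021 on the left and Control on the right of each panel, with points for the 4 libraries of a group, and the mean with its SD. CHIR99021 lies wholly below Control for 5 of the genes, against 20.6% of all genes tested, and the groups overlap for Optn. Calcoco1 averages 37.6 CPM with CHIR99021 and 130.4 CPM in Control.

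The cargo receptors held the largest fall of all 39 genes. Calcoco1 (chr15:102706777-102722178), a receptor for the endoplasmic reticulum that was first described as a transcriptional coactivator, had the lowest fold change. Calcoco1 stood at 39.5, 36.9, 33.7 and 40.1 CPM in CHIR99021 replicates 1 to 4, against 134, 128, 120.3 and 139.6 CPM in Control replicates 1 to 4. No treated library came near the lowest Control library, and the treated libraries held 28.8% of the Control mean, 37.6 ± 2.92 CPM with CHIR99021 and 130.4 ± 8.34 CPM in Control. The log2 fold change was -1.77 ± 0.07 (95% confidence interval -1.92 to -1.62, limma adjusted p = 1.72e-07), the 27th lowest of 14264 genes. Bnip3l (chr14:66985239-67008877) encodes NIX, a receptor on mitochondria. Bnip3l had 69.6, 86.8, 79.9 and 73.4 CPM in CHIR99021 replicates 1 to 4, against 154, 172, 169 and 153 CPM in Control replicates 1 to 4. It was at 47.8% of the Control mean (-1.06 ± 0.07, limma adjusted p = 4.58e-06) and ranked 143rd lowest. Nbr1 stood at 115, 108, 111 and 116 CPM in CHIR99021 replicates 1 to 4, against 196, 182, 179 and 196 CPM in Control replicates 1 to 4. Nbr1, a receptor for ubiquitinated aggregates, was lower in every treated library (-0.74 ± 0.05, limma adjusted p = 5.38e-06). Tax1bp1 had 139, 141, 154 and 143 CPM in CHIR99021 replicates 1 to 4, against 216, 208, 207 and 192 CPM in Control replicates 1 to 4. Tax1bp1, a further ubiquitin-binding receptor and a relative of CALCOCO1, was lower by 0.51 (SE 0.06, limma adjusted p = 7.29e-05). The log2 ratio of Calcoco1 to Tax1bp1 within a library was -1.94 ± 0.17 with CHIR99021 and -0.66 ± 0.14 in Control, a difference of -1.28 (SD, n = 4 each). Sqstm1 was measured at 138, 143, 143 and 141 CPM in CHIR99021 replicates 1 to 4, against 153, 163, 173 and 175 CPM in Control replicates 1 to 4. Sqstm1 encodes p62, the receptor that is itself degraded by autophagy, and its fall of 0.23 (SE 0.05, limma adjusted p = 0.00774) was the smallest among the receptors that passed. In edgeR's quasi-likelihood test on the recovered reads it did not pass (adjusted p = 0.0548). Nor did the fall of Sqstm1 pass within replicates 1 and 4 or within 2 and 3 (limma adjusted p = 0.0879 and 0.0825). Optn, a receptor that acts in mitophagy, did not pass at 15.2 ± 1.61 CPM with CHIR99021 and 13.7 ± 1.15 CPM in Control (0.14, -0.07 to 0.35). Per kilobase of exon, Sqstm1 at 42.1 ± 0.726 CPM per kilobase with CHIR99021 and 49.5 ± 3.01 in Control was the most abundant receptor transcript in both groups. Bnip3l reached 20.1 ± 1.96 CPM per kilobase with CHIR99021 and 42.0 ± 2.50 in Control, and Calcoco1 6.55 ± 0.510 CPM per kilobase with CHIR99021 and 22.8 ± 1.46 in Control.

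The folliculin complex moved the other way. Folliculin and its partners FNIP1 and FNIP2 act on the RagC and RagD GTPases at the lysosome, through which mTORC1 holds TFEB, the transcription factor of lysosomal and autophagy genes, outside the nucleus. In all 3 genes the treated libraries lay above the Control libraries, as in 12.7% of all genes. Of the 3, 2 passed the test, against 12.3% of all genes called higher. Fnip2 stood at 51.7, 46.6, 50.3 and 48.4 CPM in CHIR99021 replicates 1 to 4, against 36.8, 36.0, 36.6 and 35.0 CPM in Control replicates 1 to 4. Fnip2 (chr3:79455974-79567796) varied little within a group and was higher by 0.44 ± 0.06 (limma adjusted p = 0.000242). Flcn had 60.0, 59.2, 51.6 and 50.5 CPM in CHIR99021 replicates 1 to 4, against 47.1, 45.2, 44.1 and 49.0 CPM in Control replicates 1 to 4. The treated libraries of Flcn formed a higher pair and a lower pair, the lower one close to Control replicate 4 (0.25 ± 0.07, limma adjusted p = 0.0224). That call did not pass without CHIR99021 replicate 1, CHIR99021 replicate 2, Control replicate 2 or Control replicate 3 (limma adjusted p = 0.0692, 0.0559, 0.056 and 0.0508). Nor did it pass within replicates 1 and 4 or within 2 and 3 (limma adjusted p = 0.206 and 0.0912). Fnip1 was measured at 53.0, 47.2, 51.8 and 47.6 CPM in CHIR99021 replicates 1 to 4, against 46.2, 46.6, 41.3 and 34.5 CPM in Control replicates 1 to 4. Fnip1 differed by 0.25 ± 0.09 (limma adjusted p = 0.063), and was called higher with the replicate block (limma adjusted p = 0.0229) and in edgeR's test on the recovered reads (adjusted p = 0.0317), and in limma without Control replicate 1 or 2 (adjusted p = 0.0469 and 0.0461). The summed expression of the 3 genes was 147 to 165 CPM with CHIR99021 and 119 to 130 CPM in Control.

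**Figure D4:**
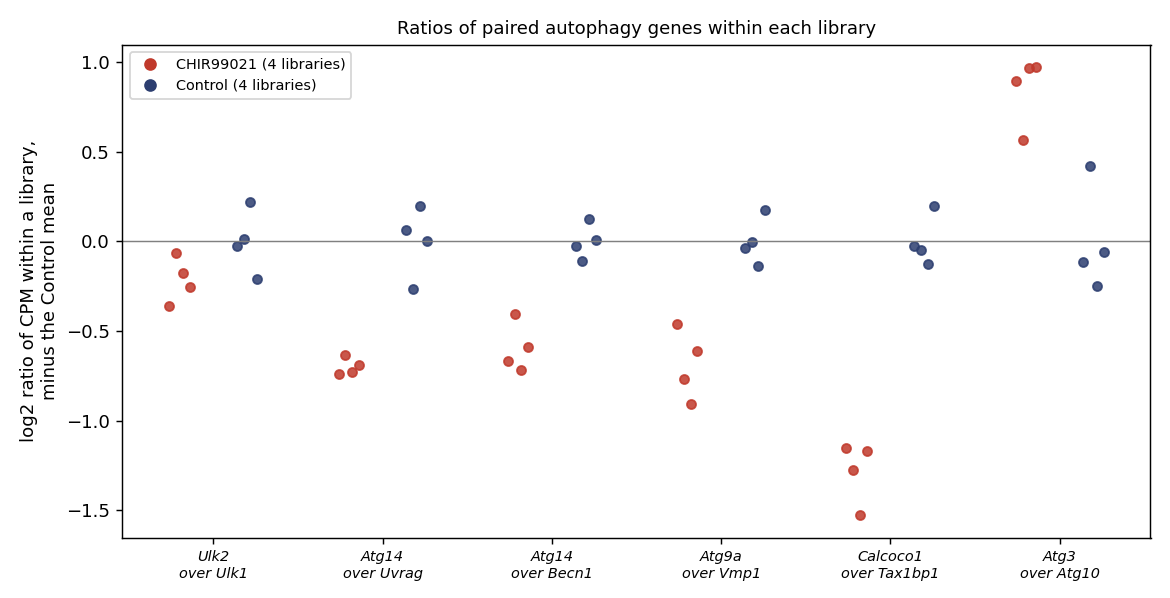
Log2 ratio of CPM between 2 genes of a role within each library, less the Control mean of that ratio, for 6 gene pairs, with CHIR99021 libraries in red and Control libraries beside them. The groups do not overlap for 5 pairs, the largest difference being -1.28 for Calcoco1 over Tax1bp1, and overlap for Ulk2 over Ulk1. All pairs were chosen after their values had been seen, so this count is a description and tests nothing.

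No difference in response between the sexes passed the test. With 2 libraries of each sex in each group, the male minus female difference in response lay between -0.26 and 0.47 (log2) over the 39 genes, and 0 of them passed in limma, where 0.0% of all genes did. At an unadjusted p under 0.05, 0 of the 39 passed, against 1.27% of all genes, and edgeR called 0 genes of either set. Calcoco1 fell by 1.77 in the male and by 1.77 in the female libraries.

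Autophagy genes outside the 40 were also lower in part. Of 28 further genes tested, 10 were lower and 0 higher, a share of 35.7% beside the 21.4% of all genes, with a median log2 fold change of -0.15. Trp53inp1 stood at 68.5, 86.4, 81.0 and 68.8 CPM in CHIR99021 replicates 1 to 4, against 169, 159.6, 150.0 and 129 CPM in Control replicates 1 to 4. Trp53inp1, a p53 target that promotes autophagy, was lower by 0.99 (SE 0.10, limma adjusted p = 3.96e-05). Pink1 had 46.5, 61.0, 56.6 and 47.5 CPM in CHIR99021 replicates 1 to 4, against 86.9, 107, 111 and 106 CPM in Control replicates 1 to 4. Pink1, the kinase that marks damaged mitochondria, fell by 0.95 (SE 0.10, limma adjusted p = 6.62e-05), with no overlap between groups. Zfyve1, whose product marks the membrane from which autophagosomes form, averaged 58.4 ± 3.60 CPM with CHIR99021 and 85.3 ± 2.80 CPM in Control (-0.54, limma adjusted p = 7.15e-05). Ccpg1, a receptor for the endoplasmic reticulum, was scarce at 0.835 ± 0.0947 CPM with CHIR99021 and 2.90 ± 0.555 CPM in Control (-1.08, limma adjusted p = 0.00023).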

How the data were processed

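The 8 libraries were strand-specific, poly(A)-selected RNA sequenced as 75 bp paired-end fragments. The authors mapped the reads to GRCm38 (Ensembl 91) with HISAT2 per the submitters' processing notes and the paper's methods; the counter and its strand setting are not given in the sources used here. The deposited table holds CPM computed by the authors, 1 row per gene without pooling of replicates, and every CPM value was a whole number of reads within 0.001 read, so reads could be recovered. Columns of the authors' own comparisons (fold ratios, log2 fold changes, p-values) hold the study's tests and were not used. IDs were matched to GENCODE mouse release 21 (42459 of 42775), whose summed exon length gave CPM per kilobase.

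Genes averaging 1 CPM or more were tested on log2(CPM + 1) with limma 3.58.1 (trend, R 4.3.3) and Benjamini-Hochberg adjustment over all 14264. Fold changes are on that scale, which understates changes of scarce genes. Ratios of gene pairs within a library are described without a test. Alternatives were other pseudocounts (0.5, 0.1), no filter, TMM scaling, edgeR 4.0.16 with TMM or DESeq2 size factors and DESeq2 1.42.0 on recovered reads, the replicate number as a block, replicates 1 and 4 or 2 and 3 alone, and leaving out each library. The limma and edgeR tests were also run on simulated reads. Those held far fewer changed genes than were called here and no replicate structure, so that run cannot show the rate of false calls here. Same-numbered libraries of both groups deviated together (correlation 0.51, 0.25, 0.35 and 0.34 for numbers 1 to 4, against at most 0.17 between other numbers). The numbers were therefore taken as pairs on the data alone, since the labels do not state a pairing. Among the tests, this pairing entered only the replicate block, and the main limma tests were unpaired. Values of each library are printed for the autophagy genes past the test without overlap between groups, and also for Fnip1 and Becn1, chosen after their values were seen. From each further list the 4 genes with the smallest p among those called are named. Members and lists were chosen with earlier results of these data known. For 5 of the 40 genes, counted in all totals, and the 3 gene pairs that hold them, values are not reported here. The limma p-values weigh a group difference against the spread between these libraries, which limma partly pools over genes.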

Additional observations from a re-analysis of the deposited data

Results flagged for a closer look

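In 3 of the 68 groups of 4 libraries examined (34 genes in each treatment group), 1 library lay far from the other 3, measured as its gap to the nearest against the range of the group. Chance flags about 1 in 20 such groups. Ulk2 stood at 91.01 CPM in Control replicate 4 and at 101 to 102 CPM in the other Control libraries. Atg10 was at 4.50 CPM in CHIR99021 replicate 2 and at 3.11 to 3.28 CPM in the other treated libraries, and its fall passed the test without that library (-0.47, limma adjusted p = 0.0315). Optn was at 15.4 CPM in Control replicate 1 and at 12.8 to 13.3 CPM in the other Control libraries.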

How the results depend on the processing

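Of 702 comparisons of the 39 fold changes with an alternative, 622 kept their direction and side of the threshold, 40 lost the call, 14 gained one and 26 changed sign. The sign changed only in genes that were not called. Becn1 became 0.028 with TMM, 0.033 with edgeR (TMM) and 0.037 with DESeq2 size factors and with DESeq2, and Atg2b became 0.048, 0.055, 0.058 and 0.058 under the same 4 settings. Atg4d became 0.043, 0.048, 0.052 and 0.052 under them, and Atg4b 0.0020, 0.0057 and 0.0058 with the 3 count tests. Atg5 was -0.029 within replicates 1 and 4. Leaving out single libraries gave -0.064 to 0.043 for Atg2b, -0.061 to 0.060 for Atg5 and -0.056 to 0.0061 for Atg4d. The number of lower autophagy genes was 17 to 25 over all alternatives, the fewest within replicates 2 and 3, and 21 to 25 when 1 library was left out. With the replicate block 24 were lower and 4 higher, Atg12 and Fnip1 being added, and no other call among the 39 changed. Fnip2 exceeded 0.5 in edgeR with either scaling and in DESeq2, so that 1 gene was higher by that rule. The number lower by more than 0.5 was 15 in the main test and 12 to 17 over all alternatives. It was 12 with TMM scaling and 13 in edgeR with either scaling and in DESeq2. Tax1bp1 no longer met that rule under any of these scalings, nor Atg101 with TMM scaling of the CPM. Over all genes, DESeq2 called 2772 higher, replicates 1 and 4 alone 1154, and replicates 2 and 3 alone 611 higher, 1057 lower and 1668 in all. Leaving out 1 library gave 1370 to 1723 higher and 2492 to 2887 lower genes. The block gave 2 genes with a sex difference in response, neither among the 39. At 1.55 to 4.85 CPM, Wdr45 rested on the fewest reads of the called genes among the 39, and Atg2a was too scarce to test. Among the autophagy genes described, removing 1 library changed the call of Flcn, Fnip1, Atg10 or Atg12, depending on the library, and outside them that of Prkag2 or Tfeb.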

Other observations

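Of 33 nutrient-sensing genes tested, whose products set how active autophagy is, 1 was higher (3.03%, against 12.3% of all genes), 5 were lower (15.2%, against 21.4%) and 27 did not pass (limma adjusted p under 0.05 over all genes), with a median log2 fold change of -0.07. The higher gene was Rragd, 1 of the Rag GTPases on which the folliculin complex acts. Rragd stood at 71.7, 75.5, 78.1 and 68.7 CPM in CHIR99021 replicates 1 to 4, against 53.3, 43.6, 51.0 and 44.6 CPM in Control replicates 1 to 4. All treated libraries were above all Control libraries (0.60 ± 0.08, limma adjusted p = 0.000183). Sesn1 had 22.5, 26.2, 22.9 and 23.1 CPM in CHIR99021 replicates 1 to 4, against 35.8, 38.1, 36.5 and 38.6 CPM in Control replicates 1 to 4. Sesn1 and Sesn3 encode sestrins, which restrain mTORC1, and both were lower, Sesn1 by 0.63 (SE 0.07, limma adjusted p = 7.45e-05). Sesn3 averaged 305 ± 15.4 CPM with CHIR99021 and 436 ± 18.3 CPM in Control (-0.51, limma adjusted p = 7.76e-05). Prkag2, a regulatory subunit of AMPK, averaged 37.5 ± 2.31 CPM with CHIR99021 and 44.3 ± 3.36 CPM in Control (-0.23, limma adjusted p = 0.0277). It did not pass after TMM scaling (limma adjusted p = 0.0746), in edgeR or DESeq2 on the recovered reads (adjusted p = 0.108 to 0.12), within either pair of replicates (limma adjusted p = 0.109 and 0.201), or without CHIR99021 replicate 1, 3 or 4 or Control replicate 1 or 3 (limma adjusted p = 0.0552 to 0.0782).

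Of 11 transcription factors known to act on autophagy genes, 2 were higher (18.2%, against 12.3% of all genes) and 4 lower (36.4%, against 21.4%). Atf4 was measured at 265, 263, 249 and 268 CPM in CHIR99021 replicates 1 to 4, against 168, 187, 189 and 186 CPM in Control replicates 1 to 4. Atf4, the factor of the integrated stress response, was higher by 0.52 ± 0.05 (limma adjusted p = 5.74e-05). Xbp1, a factor of the unfolded protein response, averaged 119 ± 3.96 CPM with CHIR99021 and 85.9 ± 8.48 CPM in Control (0.47, limma adjusted p = 0.000548). Foxo4 averaged 82.7 ± 4.18 CPM with CHIR99021 and 116 ± 5.02 CPM in Control (-0.49, limma adjusted p = 9.96e-05) and Foxo3 99.5 ± 6.91 CPM with CHIR99021 and 133 ± 10.8 CPM in Control (-0.41, limma adjusted p = 0.0012). Tfeb, which falls outside the rule for named genes and was chosen after its values were seen, averaged 9.71 ± 0.812 CPM with CHIR99021 and 12.2 ± 1.47 CPM in Control and did not pass (-0.29, limma adjusted p = 0.0519), but did with the replicate block (limma adjusted p = 0.0324) and without Control replicate 1 (0.0285). Whether any of these genes bears on the autophagy transcripts was not tested.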
